A study of Mus musculus with 4 samples.

Results

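Major histocompatibility complex (MHC) class II presentation was examined through 10 genes, all of which were found among the 15298 genes of the expression table. They were selected by name, as the class II chains *H2-Aa*, *H2-Ab1* and *H2-Eb1*, the invariant chain *Cd74*, the transactivator *Ciita*, the peptide editors *H2-DMa*, *H2-DMb1* and *H2-Oa*, and the costimulatory ligands *Cd80* and *Cd86*. Peritoneal macrophages, sorted as CD11b+ F4/80+ Ly6G- cells, came from female BALB/c mice that were 6 weeks old. Microcurrent stimulation (MCS) of 300 µA at 400 Hz was passed over the abdomen for 15 min under isoflurane, at ZT2 (zeitgeber time, counted from lights on). The control groups had the anesthesia and electrode pads with the current left off. Cells were taken at ZT2, directly after MCS ended, or at ZT14, 12 h afterward, giving the 4 libraries control ZT2, control ZT14, MCS ZT2 and MCS ZT14. A single library stood for each condition, and how many mice it was made from is not stated in the sources used here. The recovered reads numbered 8658191 in control ZT2, 9217493 in control ZT14, 8365590 in MCS ZT2 and 9953243 in MCS ZT14. No pair of conditions could therefore be tested against each other, and the differences below compare libraries. A count test of MCS and of time over all 4 libraries, which leaves 1 residual degree of freedom, is given near the end. Each is a log2 ratio of CPM (read counts scaled to the size of the library) after adding 0.1 CPM, with a 95% counting interval that covers counting error only and not the spread between mice.

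Class II molecules are heterodimers of an α and a β chain that display peptides from endocytosed proteins to CD4+ T cells. The chains assemble on the invariant chain, which occupies the peptide groove until lysosomal proteases degrade it, and the editor H2-DM then exchanges its last fragment for antigenic peptides, while H2-DO restrains H2-DM. Transcription of these genes depends on CIITA, a coactivator that binds no DNA itself and is recruited by factors on the X and Y boxes of class II promoters. In macrophages, interferon γ is the classic inducer of *Ciita*, and CD80 and CD86 supply the CD28 signal that a T cell needs besides the peptide. Resident large peritoneal macrophages carry little class II, whereas small peritoneal macrophages, dendritic cells and B cells carry much.

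Of the 10 genes, 6 lie within a single class II region on chromosome 17 (build GRCm38). *H2-Oa* stands at chr17:34092340-34095234, *H2-DMa* at chr17:34119541-34139101, *H2-DMb1* at chr17:34153072-34160230, *H2-Ab1* at chr17:34257689-34269419 and *H2-Eb1* at chr17:34305867-34316674, all on the plus strand, and *H2-Aa* at chr17:34282744-34287823 on the minus strand. *Ciita* (chr16:10480059-10528418, plus strand), *Cd80* (chr16:38455561-38496335, plus strand) and *Cd86* (chr16:36603869-36666081, minus strand) are on chromosome 16. These bounds are GENCODE's. RefSeq promoter windows of 300 bases, from 250 before to 50 after a RefSeq gene start, were matched for 6 of the 10 genes (GRCm38.p6, the C57BL/6J genome). The RefSeq start equals the GENCODE start in *H2-Aa* and *H2-Eb1* and lies downstream of it in the other 4, by 39 bases in *H2-Oa*, 119 in *H2-DMb1*, 3372 in *Cd80*, and 3291 and 5977 for the 2 windows of *H2-DMa*. The Y box was searched as TGATTGG and the X box as AACNGATG, on both strands and without overlap between them. Stretches around the Y box are shown for the members that hold it, because it is one of the elements whose factors recruit CIITA. Capitals mark matches to the Y box and, in *H2-Eb1*, to the X box upstream of it, while the X box of *H2-DMb1* lies outside the shorter stretch shown, and every stretch is read 5′ to 3′ on the strand of its gene.
H2-Aa, chr17:34287834-34287933, minus strand: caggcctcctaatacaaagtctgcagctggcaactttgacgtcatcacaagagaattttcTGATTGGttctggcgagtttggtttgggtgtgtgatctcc
H2-Eb1, chr17:34305746-34305845, plus strand: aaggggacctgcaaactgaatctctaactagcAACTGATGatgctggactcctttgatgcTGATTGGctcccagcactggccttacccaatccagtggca
H2-DMb1, chr17:34153118-34153144, plus strand: attcactcagTGATTGGtctgacctgc
H2-Oa, chr17:34092324-34092350, plus strand: agaactgctcTGATTGGctgcttaccg

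The Y box letters were found in 4 of these 6 members and the X box letters in 2 of them, *H2-Eb1* and *H2-DMb1*, where 20 and 21 bases separate the 2 elements. The Y box began 50 bases before the RefSeq start in *H2-Aa*, 61 in *H2-Eb1*, 63 in *H2-DMb1* and 45 in *H2-Oa*. Among all 32851 promoter windows of this length, 7.82% held the Y box letters, 2.32% the X box letters and 0.186% both. *H2-DMa* and *Cd80* held neither in these windows, which do not cover their GENCODE starts. A match describes letters in a window and is not evidence of binding. Only these letters were searched, so a missing match does not show that an X or Y box is absent.

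Compared per kilobase of transcript, the members spanned a wide range of levels. *Cd74* was highest, at 1408 to 1729 CPM per kb over the 4 libraries, followed by *H2-Aa* at 588 to 679, *H2-Ab1* at 431 to 609 and *H2-Eb1* at 279 to 308. The H2-DM genes lay lower, *H2-DMb1* at 66.2 to 96.3 CPM per kb and *H2-DMa* at 53.9 to 62.8. *Ciita* was at 11.9 to 16.3 CPM per kb, *Cd86* at 12.5 to 16.1, *Cd80* at 8.52 to 11.6 and *H2-Oa* at 4.32 to 7.86. The ranges of *H2-Aa* and *H2-Ab1* overlapped, as did those of *Ciita* and *Cd86*, and no other neighbours in this order overlapped. The library values were from a strain that carries the H2-d haplotype, while the reference carries H2-b, so the polymorphic chains may be counted incompletely in all libraries, and the size of this was not tested. The widest spread was in *H2-Oa*, whose highest library was 1.82 times its lowest, and the narrowest in *H2-Eb1*, at 1.11 times.

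**Figure D1:**
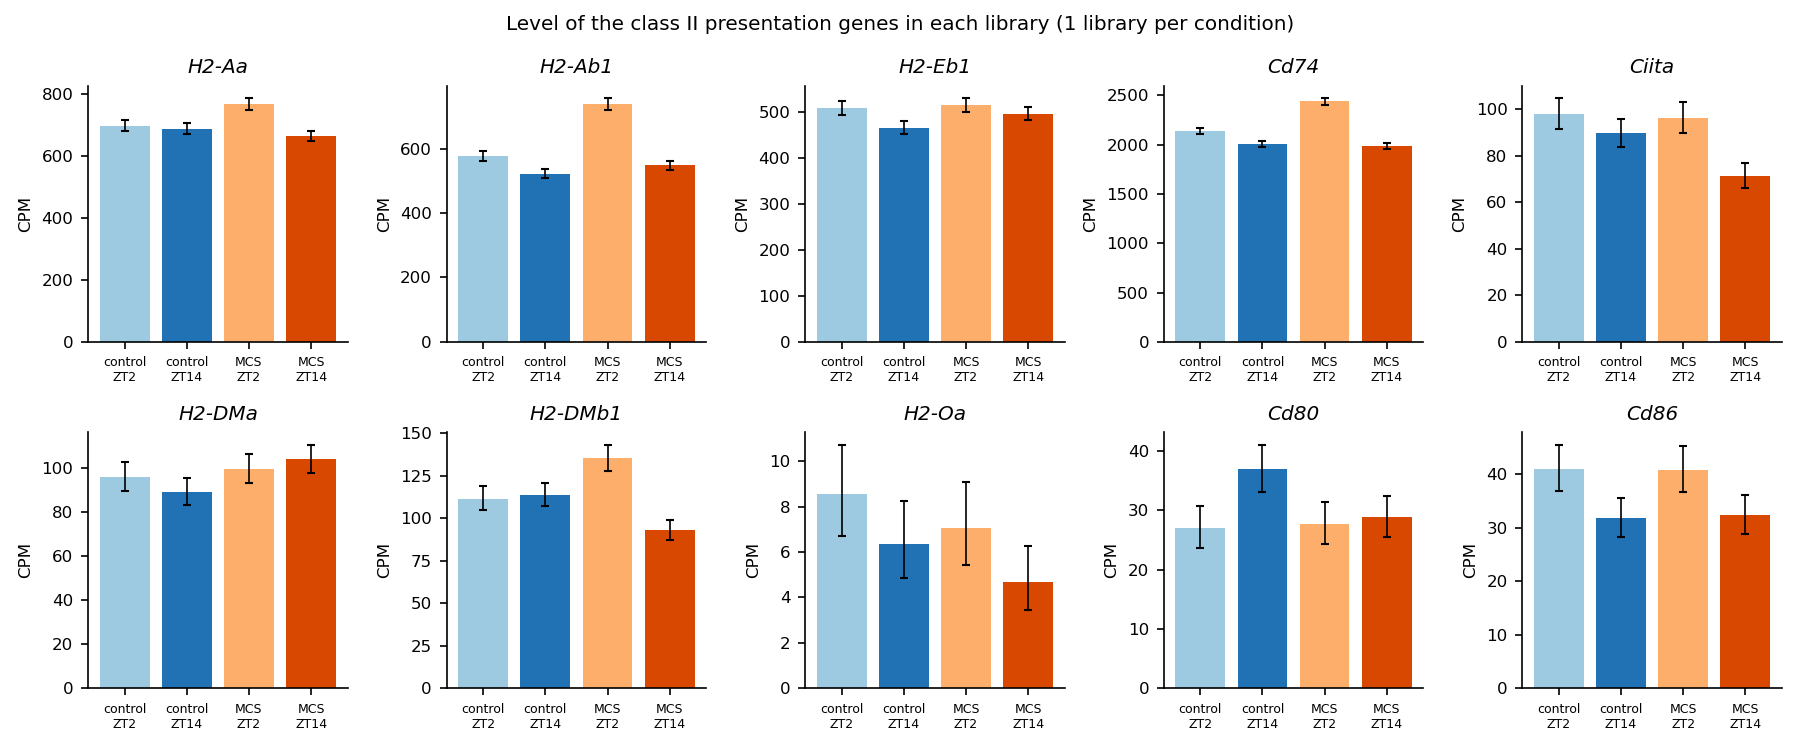
CPM (vertical axis of each panel, from 0) of the 10 genes in each library, with exact Poisson 95% counting intervals as error bars. *H2-Aa*, *H2-Ab1* and *Cd74* stand highest in MCS ZT2, *Ciita*, *H2-DMb1* and *H2-Oa* lowest in MCS ZT14, and *Cd80* highest in control ZT14.

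The first question was whether class II genes differed between MCS and control macrophages. None of the 10 genes passed the criterion for a change (a log2 ratio beyond 1 in either direction, for genes whose mean CPM exceeded 0 in log2) at ZT2, where 2.21% of 12612 genes did, or at ZT14, where 3.40% of 12368 genes did. At ZT2 the counting interval lay above 0 for 4 members, *H2-Aa*, *H2-Ab1*, *Cd74* and *H2-DMb1*, and below 0 for none, against 11.5% and 11.0% of all genes. At ZT14 it lay above 0 for 3 members, *H2-Ab1*, *H2-Eb1* and *H2-DMa*, and below 0 for 3, *Ciita*, *H2-DMb1* and *Cd80*, against 18.7% and 18.9% of all genes. The shares over all genes include genes with few reads and wide intervals, whereas the members held between 46 reads (*H2-Oa* in MCS ZT14) and 21015 reads (*Cd74* in MCS ZT2). The median log2 ratio of the members was 0.05 at ZT2 and -0.03 at ZT14, and that of all genes was 0.00 at both times.

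Transcripts of both A chains, *H2-Aa* and *H2-Ab1*, were higher in MCS ZT2 than in the other 3 libraries. *H2-Aa*, its α chain, was at 696 CPM in control ZT2, 687 in control ZT14, 766 in MCS ZT2 and 664 in MCS ZT14. *H2-Ab1*, its β chain, was at 577 CPM in control ZT2, 522 in control ZT14, 738 in MCS ZT2 and 548 in MCS ZT14. The MCS ZT2 library was the highest for both chains. At ZT2 the log2 ratio of MCS to control was 0.14 for *H2-Aa* (interval 0.09 to 0.19) and 0.36 for *H2-Ab1* (interval 0.30 to 0.41), a 1.28-fold higher level of the β chain. At ZT14 the log2 ratio was -0.05 for *H2-Aa* (interval -0.10 to 0.00) and 0.07 for *H2-Ab1* (interval 0.01 to 0.12). MCS ZT2 also stood apart in its share of CPM from *Rn45s*, the ribosomal RNA precursor gene, at 4.47%. This share was 6.18% in control ZT2, 6.52% in control ZT14 and 6.40% in MCS ZT14. With *Rn45s* left out of the library totals, the ratios of MCS to control at ZT2 were 0.16 for *H2-Aa* and 0.37 for *H2-Ab1*.

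The E chains differed less than the A chains between MCS and control at ZT2, but not at ZT14. *H2-Eb1*, the β chain of E, was at 509 CPM in control ZT2, 465 in control ZT14, 514 in MCS ZT2 and 496 in MCS ZT14. The control ZT14 library was the lowest of the 4, and the log2 ratio of MCS to control was 0.02 at ZT2 (interval -0.04 to 0.08) and 0.09 at ZT14 (interval 0.03 to 0.15). The α chain of this heterodimer is expressed in BALB/c mice but is annotated as a pseudogene, *H2-Ea-ps*, in the reference, because C57BL/6 mice carry a defective allele. *H2-Ea-ps* was listed at 227 CPM in control ZT2, 223 in control ZT14, 228 in MCS ZT2 and 249 in MCS ZT14, with a log2 ratio of MCS to control of 0.00 at ZT2 and 0.16 at ZT14 (interval 0.07 to 0.24).

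*Cd74*, the invariant chain that fills the groove of newly made class II molecules, was likewise highest in MCS ZT2. Its level was 2142 CPM in control ZT2, 2007 in control ZT14, 2438 in MCS ZT2 and 1985 in MCS ZT14. The log2 ratio of MCS to control was 0.19 at ZT2 (interval 0.16 to 0.21) and -0.02 at ZT14 (interval -0.04 to 0.01). The summed level of the 10 members followed this gene, which contributed about as many reads as the other members together, at 4306 CPM in control ZT2, 4048 in control ZT14, 4863 in MCS ZT2 and 4026 in MCS ZT14.

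The editor genes diverged from each other at ZT14. *H2-DMa*, the α chain of H2-DM, was at 95.9 CPM in control ZT2, 89.3 in control ZT14, 99.7 in MCS ZT2 and 104 in MCS ZT14. *H2-DMb1*, a β chain of H2-DM, was at 112 CPM in control ZT2, 114 in control ZT14, 135 in MCS ZT2 and 92.9 in MCS ZT14. In MCS ZT14 the α chain was thus at its highest and this β chain at its lowest. Relative to control, *H2-DMb1* in MCS had a log2 ratio of 0.28 at ZT2 (interval 0.15 to 0.40) and -0.29 at ZT14 (interval -0.42 to -0.16). The ratio for *H2-DMa* was 0.06 at ZT2 (interval -0.08 to 0.20) and 0.22 at ZT14 (interval 0.09 to 0.36).

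A second β chain gene, *H2-DMb2*, aligns to the *H2-DMb1* transcript over 1081 of its 1404 bases with 95.7% identity, so reads may have been divided between them and the level of either is uncertain. *H2-DMb2* was at 107 CPM in control ZT2, 114 in control ZT14, 111 in MCS ZT2 and 101 in MCS ZT14, with a log2 ratio of MCS to control of 0.04 at ZT2 (interval -0.09 to 0.18) and -0.18 at ZT14 (interval -0.31 to -0.05). Counted together, the 2 genes had a log2 ratio of MCS to control of 0.17 at ZT2 and -0.24 at ZT14, against 0.28 and -0.29 for *H2-DMb1* alone. *H2-Oa*, the α chain of the H2-DM inhibitor H2-DO, was the least abundant member, at 8.55 CPM in control ZT2, 6.37 in control ZT14, 7.08 in MCS ZT2 and 4.70 in MCS ZT14. These values rest on 74, 58, 61 and 46 reads, and the log2 ratios of MCS to control, -0.27 at ZT2 (interval -0.79 to 0.24) and -0.43 at ZT14 (interval -1.03 to 0.15), were not distinguishable from 0 at this depth.

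*Ciita*, the transactivator, was at 97.9 CPM in control ZT2, 89.6 in control ZT14, 96.4 in MCS ZT2 and 71.3 in MCS ZT14. The MCS ZT14 library was the lowest, and it lay below control ZT14 by a log2 ratio of -0.33 (interval -0.48 to -0.18), while the ZT2 libraries differed by -0.02 (interval -0.16 to 0.12). In MCS ZT14, where *Ciita* stood at 0.795 times its control level, *H2-DMb1*, *H2-DMb2* and *H2-Ob* were also below their control levels beyond counting error, *H2-Ab1*, *H2-Eb1*, *H2-Ea-ps* and *H2-DMa* were above them, and the intervals of *H2-Aa*, *Cd74* and *H2-Oa* included 0.

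The costimulatory ligands differed in which library stood apart. *Cd80* was at 27.0 CPM in control ZT2, 36.9 in control ZT14, 27.7 in MCS ZT2 and 28.8 in MCS ZT14. The control ZT14 library was above the other 3, and MCS ZT14 lay below it by a log2 ratio of -0.36 (interval -0.59 to -0.12), while the ZT2 libraries differed by 0.04 (interval -0.23 to 0.30). *Cd86* was at 41.0 CPM in control ZT2, 31.7 in control ZT14, 40.7 in MCS ZT2 and 32.3 in MCS ZT14. Both ZT2 libraries were above both ZT14 libraries for *Cd86*, and MCS and control differed by a log2 ratio of -0.01 at ZT2 (interval -0.23 to 0.21) and 0.03 at ZT14 (interval -0.21 to 0.26).

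**Figure D2:**
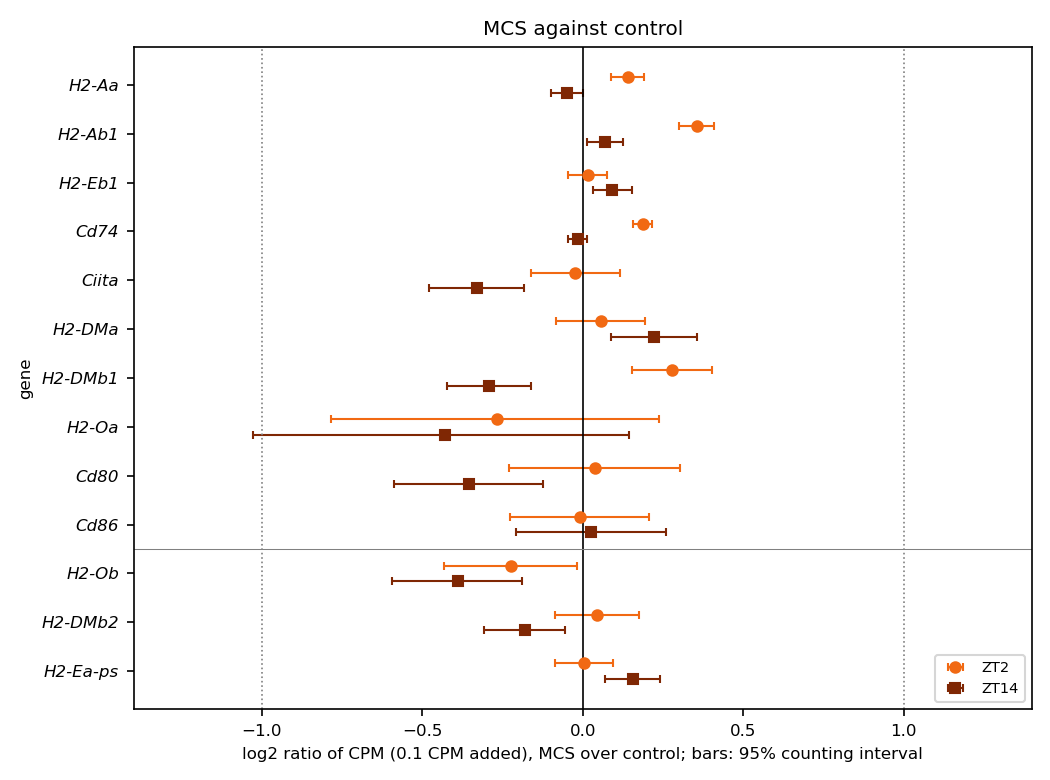
Log2 ratio of MCS to control (horizontal axis) at ZT2 (circles) and ZT14 (squares) for the 10 members, above the line, and 3 further class II genes. Bars are 95% counting intervals and dotted lines mark the criterion of a log2 ratio of 1 in either direction, which no gene reaches; *H2-DMb1* lies at 0.28 and -0.29, on opposite sides of 0.

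The MCS log2 ratio was larger at ZT2 than at ZT14 for several members, taken as the difference of the 2 log2 ratios with its counting interval. The difference was 0.57 for *H2-DMb1* (interval 0.39 to 0.75), 0.39 for *Cd80* (interval 0.05 to 0.74), 0.31 for *Ciita* (interval 0.11 to 0.51) and 0.29 for *H2-Ab1* (interval 0.21 to 0.36). It was 0.20 for *Cd74* (interval 0.16 to 0.24) and 0.19 for *H2-Aa* (interval 0.12 to 0.26). The interval included 0 for *H2-Eb1*, *H2-DMa*, *H2-Oa* and *Cd86*. The share of all genes with such an interval clear of 0 is not given for this measure. How many members were clear of 0 is therefore not read as particular to them. Without replicates an interaction of MCS with time could not be tested.

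The second question was whether class II genes differed between ZT2 and ZT14. Again none of the 10 genes passed the criterion, in control macrophages, where 3.61% of 12465 genes did, or in MCS macrophages, where 5.83% of 12534 genes did. These comparisons share their libraries with those of MCS and control. In control, the counting interval lay above 0, that is higher at ZT2, for 4 members, *H2-Ab1*, *H2-Eb1*, *Cd74* and *Cd86*, and below 0 for 1, *Cd80*, against 13.6% and 15.9% of all genes. In MCS it lay above 0 for 7 members, *H2-Aa*, *H2-Ab1*, *Cd74*, *Ciita*, *H2-DMb1*, *H2-Oa* and *Cd86*, and below 0 for none, against 21.9% and 22.2% of all genes. The median log2 ratio of ZT2 to ZT14 was 0.11 in control and 0.31 in MCS for the members, and -0.00 and 0.01 for all genes.

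Among the chains, the log2 ratio of ZT2 to ZT14 for *H2-Ab1* was 0.14 in control (interval 0.09 to 0.20) and 0.43 in MCS (interval 0.38 to 0.48). For *Cd74* it was 0.09 in control (interval 0.06 to 0.12) and 0.30 in MCS (interval 0.27 to 0.32), and for *H2-Aa* 0.02 in control (interval -0.03 to 0.07) and 0.21 in MCS (interval 0.16 to 0.26). *H2-Eb1* showed no such widening, with 0.13 in control (interval 0.07 to 0.19) and 0.05 in MCS (interval -0.01 to 0.11). The A chains and the invariant chain thus stood further apart between the MCS libraries than between the control libraries.

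For the regulators and editors, *Ciita* had a log2 ratio of ZT2 to ZT14 of 0.13 in control (interval -0.01 to 0.27) and 0.44 in MCS (interval 0.29 to 0.58). *H2-DMb1* had -0.03 in control (interval -0.16 to 0.10) and 0.54 in MCS (interval 0.41 to 0.67), and counted together with *H2-DMb2* it had -0.06 in control and 0.34 in MCS. *H2-Oa* had 0.42 in control (interval -0.09 to 0.95) and 0.58 in MCS (interval 0.01 to 1.17), and *H2-DMa* 0.10 in control (interval -0.04 to 0.24) and -0.06 in MCS (interval -0.20 to 0.07).

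The costimulatory ligands took opposite directions by time in control. *Cd80* was lower at ZT2, with a log2 ratio of -0.45 in control (interval -0.70 to -0.20) and -0.06 in MCS (interval -0.31 to 0.20). *Cd86* was higher at ZT2, with 0.37 in control (interval 0.14 to 0.60) and 0.33 in MCS (interval 0.11 to 0.56). *Cd86* was therefore the member whose time difference was most alike in control and MCS among those beyond counting error in both.

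**Figure D3:**
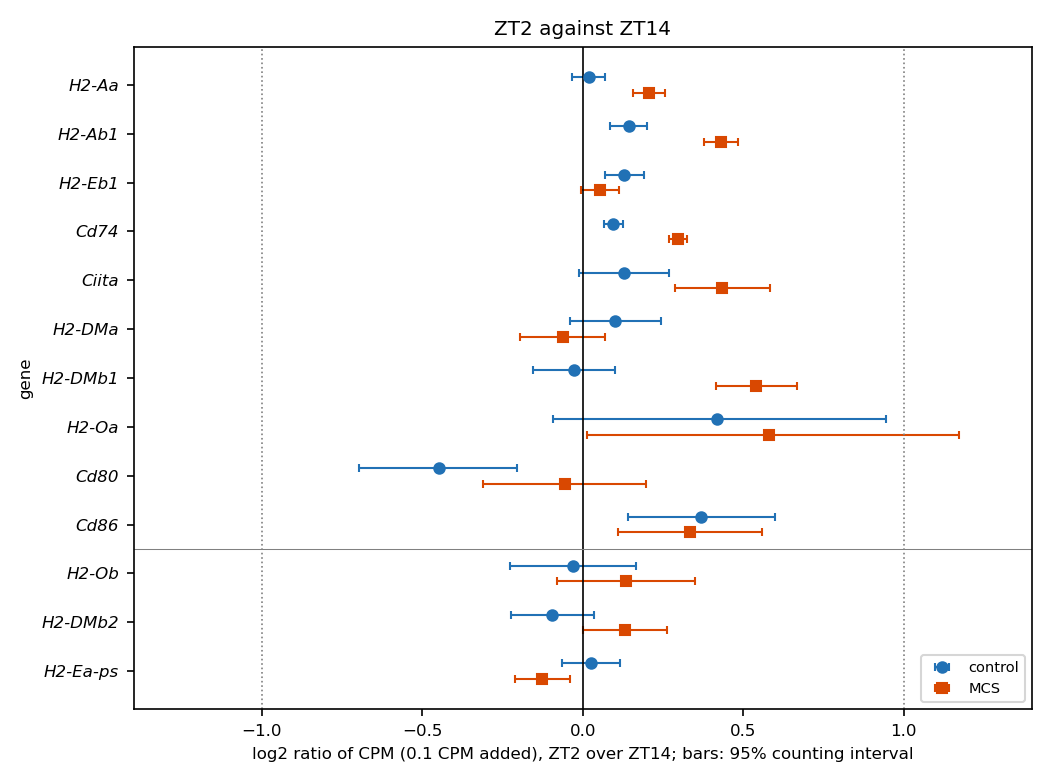
Log2 ratio of ZT2 to ZT14 (horizontal axis) in control (circles) and MCS (squares) for the 10 members, above the line, and 3 further class II genes, with 95% counting intervals as bars and dotted lines at a log2 ratio of 1 in either direction. *H2-DMb1* lies at -0.03 in control and 0.54 in MCS, and *Cd86* at 0.37 and 0.33.

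Ratios of reads between partner genes within a library do not depend on how the libraries were scaled. The ratio of *H2-Ab1* to *H2-Aa* was 0.830 in control ZT2, 0.761 in control ZT14, 0.963 in MCS ZT2 and 0.825 in MCS ZT14. The β chain was thus nearest to the α chain in MCS ZT2, and the log2 change of the ratio between MCS and control was 0.22 at ZT2 (interval 0.14 to 0.29) and 0.12 at ZT14 (interval 0.04 to 0.19). The ratio of *H2-Eb1* to *H2-Ea-ps*, within E, was 2.24 in control ZT2, 2.08 in control ZT14, 2.26 in MCS ZT2 and 1.99 in MCS ZT14, and MCS and control did not differ beyond counting error at either time. The ratio of *H2-Ab1* to *H2-Eb1*, the β chains of A and E, was 1.14 in control ZT2, 1.12 in control ZT14, 1.44 in MCS ZT2 and 1.11 in MCS ZT14, so that 1 library stood apart from the other 3. The ratio of *Cd74* to *H2-Aa* was between 2.92 and 3.18. It was higher at ZT2 than at ZT14 by a log2 change of 0.08 in control (interval 0.02 to 0.13) and 0.09 in MCS (interval 0.03 to 0.15), and its log2 change between MCS and control was 0.05 at ZT2 (interval -0.01 to 0.10) and 0.03 at ZT14 (interval -0.02 to 0.09). The ratio of *Ciita* to *H2-Aa* was 0.141 in control ZT2, 0.131 in control ZT14, 0.126 in MCS ZT2 and 0.107 in MCS ZT14, lowest in MCS ZT14, with a log2 change between MCS and control of -0.16 at ZT2 (interval -0.31 to -0.02) and -0.28 at ZT14 (interval -0.44 to -0.13).

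Within the editor, the ratio of *H2-DMb1* to *H2-DMa* was 1.16 in control ZT2, 1.27 in control ZT14, 1.36 in MCS ZT2 and 0.893 in MCS ZT14. MCS ZT14 was the only library with fewer *H2-DMb1* than *H2-DMa* reads, which are not corrected for length. Per kilobase, *H2-DMb1* stayed above *H2-DMa* there, at 66.2 against 62.8 CPM per kb. The log2 change of the ratio between MCS and control at ZT14 was -0.51 (interval -0.70 to -0.33). When reads of *H2-DMb1* and *H2-DMb2* were added together, this change was -0.46 (interval -0.62 to -0.30). At ZT2 the log2 change was 0.22 for *H2-DMb1* alone (interval 0.04 to 0.41) and 0.11 for the sum (interval -0.05 to 0.28).

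The ratio of *H2-Oa* to *H2-Ob*, the α and β chains of H2-DO, was 0.177 in control ZT2, 0.129 in control ZT14, 0.171 in MCS ZT2 and 0.125 in MCS ZT14, with overlapping counting intervals in all 4. *H2-DMa* exceeded *H2-Oa* by 11.2 times in control ZT2, 14.0 in control ZT14, 14.1 in MCS ZT2 and 22.1 in MCS ZT14, in reads that are not corrected for length. The ratio of *Cd86* to *Cd80* was 1.52 in control ZT2, 0.860 in control ZT14, 1.47 in MCS ZT2 and 1.12 in MCS ZT14. Control ZT14 was the only library with fewer *Cd86* than *Cd80* reads. Per kilobase, *Cd86* was above *Cd80* there, at 12.5 against 11.6 CPM per kb. The log2 change of the *Cd86* to *Cd80* ratio from ZT14 to ZT2 was 0.82 in control (interval 0.49 to 1.15) and 0.39 in MCS (interval 0.06 to 0.72).

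**Figure D4:**
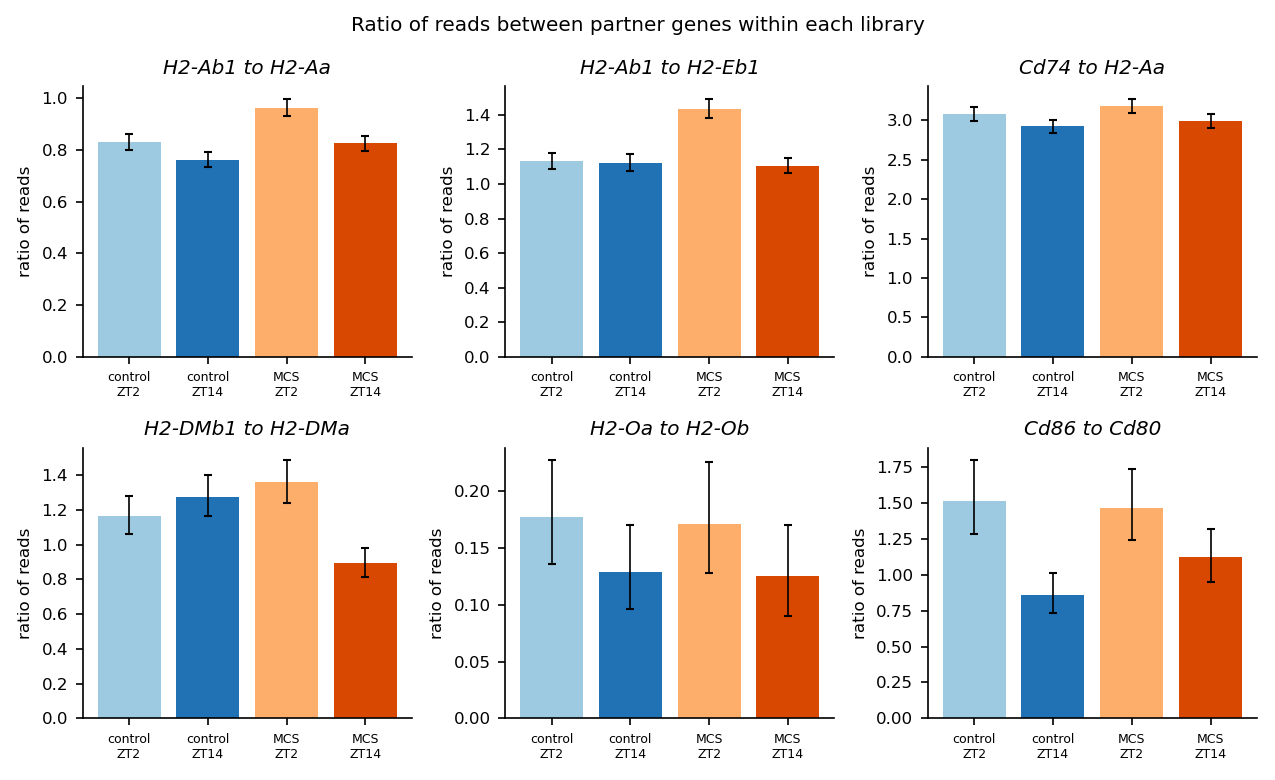
Ratio of reads (vertical axis of each panel, from 0) between 6 pairs of partner genes in each library, with 95% counting intervals as error bars. *H2-Ab1* to *H2-Eb1* stands apart in MCS ZT2 at 1.44, and *H2-DMb1* to *H2-DMa* falls below 1 only in MCS ZT14, at 0.893. Reads are not corrected for transcript length.

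Further genes of the pathway were described from lists by role. Of 4 other class II genes, none passed the criterion in any comparison. *H2-Ob*, the β chain of H2-DO, was at 48.3 CPM in control ZT2, 49.3 in control ZT14, 41.3 in MCS ZT2 and 37.6 in MCS ZT14, with log2 ratios of MCS to control of -0.22 at ZT2 (interval -0.43 to -0.02) and -0.39 at ZT14 (interval -0.59 to -0.19). *H2-Eb2*, a homolog of *H2-Eb1* named after its values were seen, was scarce, at 1.39 CPM in control ZT2, 2.20 in control ZT14, 1.51 in MCS ZT2 and 2.15 in MCS ZT14.

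Of 11 genes of lysosomal processing and class II turnover, 1 passed the criterion. At ZT14 the interval for MCS against control lay above 0 for 4 of the 11 and below 0 for 4, against 18.7% and 18.9% of all genes. At ZT2 it lay above 0 for 2 and below 0 for 3, against 11.5% and 11.0%. As for the members, the shares over all genes include genes with few reads and wide intervals. *Ctsl*, a cysteine protease that can cleave the invariant chain, was at 276 CPM in control ZT2, 135 in control ZT14, 253 in MCS ZT2 and 225 in MCS ZT14, which gives a log2 ratio of ZT2 to ZT14 of 1.02 in control (interval 0.92 to 1.13) and 0.16 in MCS. Control ZT14 was far below the other 3 libraries for this gene. *Ctsd*, *Ctsb* and *Cst3*, an inhibitor of cysteine cathepsins, were the most abundant of the list, and their log2 ratios stayed between -0.40 and 0.23 in the 4 comparisons. *March1*, named after its values were seen, encodes a ubiquitin ligase that sends class II and CD86 for degradation, and was at 284 CPM in control ZT2, 146 in control ZT14, 198 in MCS ZT2 and 129 in MCS ZT14. Both ZT2 libraries were above both ZT14 libraries, with log2 ratios of 0.96 in control (interval 0.86 to 1.06) and 0.62 in MCS.

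None of 7 genes for factors that bind class II promoters passed the criterion. The interval for MCS against control lay above 0 for none and below 0 for 2 of the 7 at ZT14, against 18.7% and 18.9% of all genes. At ZT2 it lay above 0 for 1 and below 0 for none, against 11.5% and 11.0%. *Rfx5*, the X box factor, was at 43.1 CPM in control ZT2, 46.6 in control ZT14, 41.4 in MCS ZT2 and 32.3 in MCS ZT14. Like *Ciita*, it was lowest in MCS ZT14, at a log2 ratio of -0.53 against control ZT14 (interval -0.74 to -0.31). *Nfya*, a subunit of the Y box factor, was at 55.7 CPM in control ZT2, 84.6 in control ZT14, 71.8 in MCS ZT2 and 86.9 in MCS ZT14, and *Creb1*, another X box factor, at 99.3, 114, 106 and 92.6 CPM in the same order.

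None of 9 genes on the interferon γ route to *Ciita* passed it either. The most abundant, *Jak1*, *Spi1* and *Jak2*, kept log2 ratios of MCS to control between -0.08 and 0.13. The interval for MCS against control lay above 0 for 2 of the 9 and below 0 for 2 at ZT14, against 18.7% and 18.9% of all genes. At ZT2 it lay above 0 for 4 and below 0 for none, against 11.5% and 11.0%. Of 7 other costimulatory and coinhibitory ligands, all had a lower level in MCS ZT14 than in control ZT14, as did 6132 of 12368 genes tested. The interval lay below 0 for 3 and above 0 for none of the 5 with sufficient expression at ZT14, against 18.9% and 18.7% of all genes. At ZT2 it lay below 0 for 1 and above 0 for none of 6, against 11.0% and 11.5%. *Cd274*, which encodes PD-L1, was at 40.4 CPM in control ZT2, 51.5 in control ZT14, 45.8 in MCS ZT2 and 30.2 in MCS ZT14, a log2 ratio of MCS to control of -0.77 at ZT14 (interval -0.99 to -0.56). *Pdcd1lg2*, which encodes PD-L2, was at 18.1 CPM in control ZT2, 18.9 in control ZT14, 16.5 in MCS ZT2 and 14.7 in MCS ZT14, lowest in MCS ZT14 as *Cd274* was. *Cd40*, the receptor for T cell CD40 ligand, was highest in control ZT14, as *Cd80* was, at 14.6 CPM in control ZT2, 23.3 in control ZT14, 13.3 in MCS ZT2 and 17.4 in MCS ZT14. The only ligand past the criterion was *Tnfsf4*, at a log2 ratio of -1.70 for MCS to control at ZT2, on 4 reads in MCS and 15 in control.

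Cell type markers were read beside these results, since bulk RNA cannot tell fewer cells of a type from less RNA per cell. The macrophage label was met by its markers, with *Lyz2* at 17344 to 18847 CPM, *Itgam* (CD11b) at 4214 to 5162 and *Adgre1* (F4/80) at 1086 to 1900. *Adgre1* was lowest in MCS ZT2 and highest in MCS ZT14, whereas *Cd68*, named after its values were seen, was highest in MCS ZT2 at 300.1 CPM and lowest in MCS ZT14 at 215 CPM. The 7 macrophage markers together, most of whose reads were *Lyz2*, differed between MCS and control by a log2 ratio of -0.04 at ZT2 (interval -0.05 to -0.04) and 0.13 at ZT14 (interval 0.13 to 0.14). The 9 large peritoneal macrophage markers summed to 9152 CPM in control ZT2, 8905 in control ZT14, 8223 in MCS ZT2 and 10409 in MCS ZT14, with *Alox15*, *Prg4* and *Timd4* the most abundant. Against control ZT14, 5 of the 9 were higher in MCS ZT14 beyond counting error and 3 were lower, against 18.7% and 18.9% of all genes. The high sum in MCS ZT14 rested on *Alox15*, at 5532 CPM against 3607 to 4015 in the other libraries. Without *Alox15* the other 8 markers summed to 5137 CPM in control ZT2, 5193 in control ZT14, 4616 in MCS ZT2 and 4877 in MCS ZT14. With or without it the sum was lowest in MCS ZT2, where *H2-Aa*, *H2-Ab1* and *Cd74* were highest. The 8 small peritoneal macrophage markers, with *Retnla*, *Ccr2* and *Mrc1* the most abundant, had their highest sum in MCS ZT2, at 925 CPM in control ZT2, 823 in control ZT14, 1051 in MCS ZT2 and 722 in MCS ZT14. *Irf4* and *Lyve1* were highest in control ZT14, and *Cd226* in control ZT2. At ZT2, 5 of the 8 were higher in MCS than in control beyond counting error and none lower, against 11.5% and 11.0% of all genes. At ZT14, 1 was higher and 4 lower, against 18.7% and 18.9%. Of the 8, *Lyve1* passed the criterion, with log2 ratios of -1.30 for MCS against control at ZT14 and 1.08 for ZT2 against ZT14 in MCS.

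Dendritic cell markers summed to 78.3 CPM in control ZT2, 64.2 in control ZT14, 109 in MCS ZT2 and 63.2 in MCS ZT14 over 9 genes, of which *Cd209a*, *Ccr7* and *Itgax* were the most abundant. At ZT2, 5 of 9 (*Flt3*, *Clec9a*, *Cd209a*, *Itgax* and *Siglech*) were higher in MCS than in control beyond counting error, against 11.5% of all genes. Between ZT2 and ZT14 in MCS, 4 of 9 passed the criterion, against 5.83% of all genes. They were *Flt3* at a log2 ratio of 1.09, *Clec9a* at 1.15, *Itgax* at 1.64 and *Siglech* at 2.24, the last on 24 and 5 reads. *Siglech* also passed the criterion for MCS against control at ZT2, at 1.20 on 24 and 10 reads. The summed log2 ratio of MCS to control at ZT2 was 0.48 for dendritic cell markers (interval 0.34 to 0.63) and 0.18 for small peritoneal macrophage markers (interval 0.14 to 0.23), beside 0.18 for the 10 class II members (interval 0.16 to 0.20). At ZT14 it was -0.02 for dendritic cell markers (interval -0.19 to 0.14), -0.19 for small peritoneal macrophage markers (interval -0.24 to -0.14) and -0.01 for the members (interval -0.03 to 0.01).

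B cell markers were present in every library, none at 0, after a sort on CD11b and F4/80. Their 10 genes summed to 1494 CPM in control ZT2, 1799 in control ZT14, 1420 in MCS ZT2 and 1242 in MCS ZT14, and *Cd79a*, the most abundant before *Ms4a1* and *Cd79b*, was at 321, 369, 316 and 233 CPM in the same order. All 10 were lower in MCS ZT14 than in control ZT14 beyond counting error, against 18.9% of all genes, with a summed log2 ratio of -0.54 (interval -0.57 to -0.50). B cells express *Ciita*, *H2-Oa*, *H2-Ob* and the class II chains, and MCS ZT14 against control ZT14 gave log2 ratios of -0.33 for *Ciita*, -0.39 for *H2-Ob*, -0.43 for *H2-Oa*, -0.05 for *H2-Aa*, 0.07 for *H2-Ab1* and 0.09 for *H2-Eb1*, of which those of *H2-Oa* and *H2-Aa* had intervals that included 0. T cell markers summed to 51.2 CPM in control ZT2, 36.9 in control ZT14, 57.1 in MCS ZT2 and 38.4 in MCS ZT14 over 7 genes, with *Lck*, *Cd3e* and *Cd28* the most abundant. *Cd3d* (log2 ratio of ZT2 to ZT14 of 1.07 in control, on 23 and 11 reads) and *Cd4* (1.05 in MCS, on 74 and 40 reads) passed the criterion. In MCS *Cd3d* went the other way, on 12 reads at ZT2 and 24 at ZT14. The part of any of these cell types in the class II values was not tested.

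**Figure D5:**
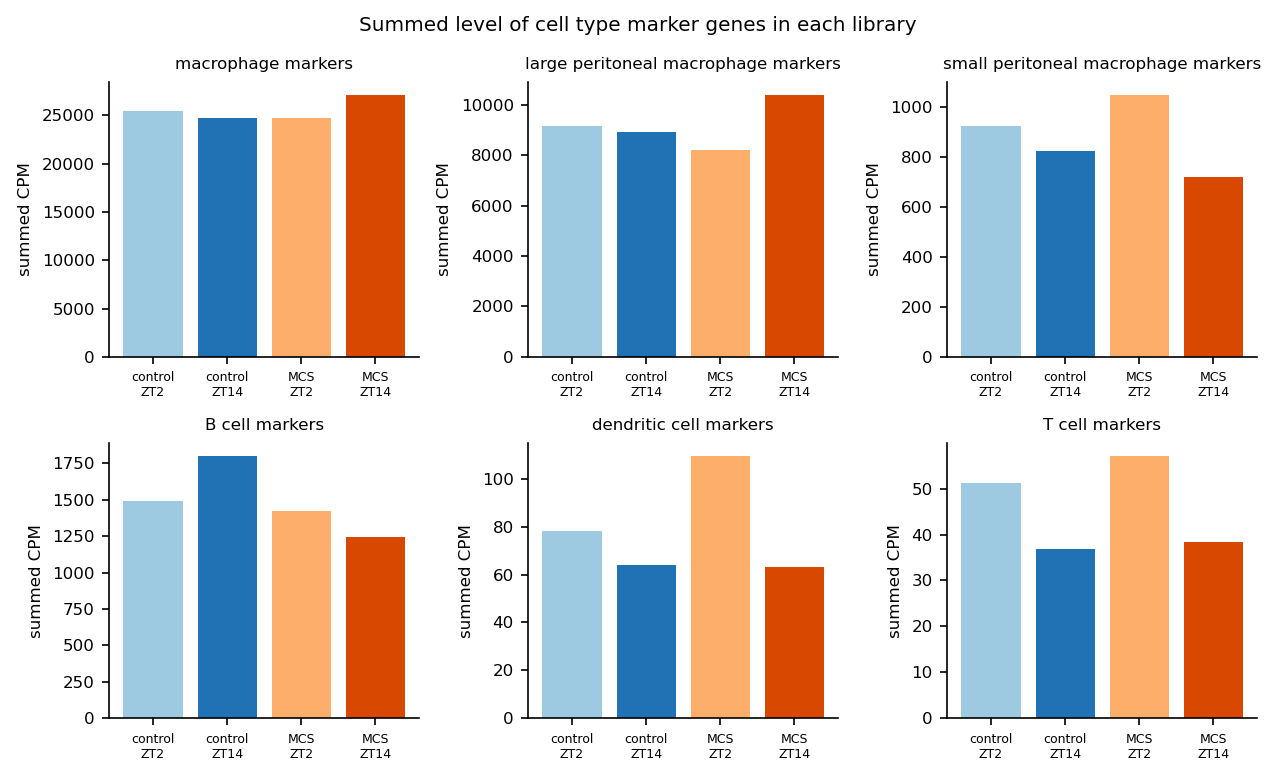
Summed CPM (vertical axis of each panel, from 0) of 6 lists of cell type markers in each library. The sums of small peritoneal macrophage and dendritic cell markers are highest in MCS ZT2, at 1051 and 109 CPM, and that of B cell markers is lowest in MCS ZT14, at 1242 CPM.

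A count test that used all 4 libraries together was run as an alternative, with additive terms for MCS and time, so any effect of MCS is taken to be equal at ZT2 and ZT14. With 1 residual degree of freedom, its error rests on how far the 4 libraries depart from additive terms, not on the spread between mice. The calls below therefore describe these 4 libraries. In edgeR's quasi-likelihood test 0.193% of 12404 genes were called for MCS and 2.38% for time at an adjusted p under 0.05. None of the 10 members was called for either term, none had an unadjusted p under 0.05, and DESeq2 likewise called none and gave none an unadjusted p under 0.05. The lowest adjusted p among the members was 0.533 for time, for *Cd86*, with an edgeR log2 difference of ZT2 to ZT14 of 0.36. *March1* was called for time (log2 difference 0.80, edgeR adjusted p = 0.0048), as were the markers *Mertk* (0.80, edgeR adjusted p = 0.0036) and *Mrc1* (0.70, edgeR adjusted p = 0.013), and these 3, of which *March1* and *Mertk* were named after their values were seen, were the only genes of the lists called by edgeR with its filter on low counts. DESeq2 also called *March1* and *Mertk*, and edgeR without the filter called these 3 and, for time, *Cd209a*, *Flt3*, *Itgax*, *Irf8* and *Ctsl*.

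The genes whose profile over the 4 libraries lay nearest to that of the summed *H2-Aa*, *H2-Ab1* and *H2-Eb1* were *BC003331*, *Hepacam2*, *Mettl3*, *Tbk1* and *BC017158*, at Euclidean distances of 0.0142 to 0.0331 on the centred log2 scale, among 8622 genes with a mean of at least 10 CPM. *Tbk1*, a kinase of innate immune signaling and the most abundant of these 5, was at 67.1 CPM in control ZT2, 62.4 in control ZT14, 74.8 in MCS ZT2 and 62.4 in MCS ZT14. The likeness rests on 4 values per gene.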

How the data were processed

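RNA of the 4 libraries had been depleted of ribosomal RNA and prepared with a directional kit. The authors trimmed reads with Trimmomatic 0.38, ran RSEM 1.3.0 with Bowtie 2 to estimate counts per gene, and scaled these with edgeR to the deposited CPM, the unit of every value used here. The submitters' processing notes name mm10, and which annotation was used is not given in those sources. Each deposited CPM value was a whole number of reads (within 0.05 read for 100.0% of values) times a factor of its library, 0.115, 0.110, 0.116 and 0.102 CPM per read for control ZT2, control ZT14, MCS ZT2 and MCS ZT14. RSEM estimates need not be whole, so any rounding by the authors is included.

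Counting intervals for ratios are exact conditional binomial (Clopper-Pearson), those for levels exact Poisson, and those for differences of log2 ratios and changes of partner ratios normal approximations on the log scale. A change was called beyond a log2 ratio of 1 in either direction, for genes with a log2 mean CPM over 0. All members are named, and of each other list the genes that passed this criterion in any comparison, the 3 most abundant and the markers used to check the cell type label (*Lyz2*, *Itgam* and *Adgre1*). The 5 genes of nearest profile are named too, and any other name was chosen after its values were seen. *Ly6g*, planned as the neutrophil marker of the sort, was not found among the genes of the expression table, so the Ly6G- part of the sort was not checked. *Ighm* and *Ighd*, planned as B cell markers, were not among the 10 analysed. The members, lists and motif letters were chosen with earlier results of these data known. Count tests were run on recovered reads, for genes holding 40 or more in total (edgeR 4.0.16, DESeq2 1.42.0, R 4.3.3) and had 1 residual degree of freedom. Ratios and count test were run on simulated data with an MCS effect equal at ZT2 and ZT14. This does not cover effects that differ between the times, or the spread between mice. Positions and lengths are from GENCODE on GRCm38 (the transcript of best APPRIS rank, the longest at a tie), promoters from RefSeq, and transcript alignments from blastn 2.17.0. *Cd74* is given without position. Alternatives were other amounts added before the logarithm, other scalings and thresholds, and, chosen after seeing the data, partner ratios with *H2-DMb1* and *H2-DMb2* added together and a marker sum without *Alox15*. Other steps were run in Python 3.11.15 (scipy 1.17.1, numpy 2.4.6, pandas 2.3.3, matplotlib 3.10.9).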

Additional observations from a re-analysis of the deposited data

Results flagged for a closer look

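The MCS log2 ratio lay on opposite sides of 0 at ZT2 and ZT14, with both counting intervals clear of 0, for 1 of the 10 members, against 10.2% of 12236 genes, so the share among the members was near that of all genes. The same held for 4 of 36 genes of the other pathway lists (11.1%) and 10 of 49 marker genes (20.4%). Whether the 2 times differ beyond the spread between mice was not tested, since each condition had 1 library. *Irf8*, *Csf1r*, *Icam2*, *Cd5l*, *Folr2* and *Ebf1* are named here because of these values.

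For *H2-DMb1* the log2 ratio was 0.28 at ZT2 and -0.29 at ZT14, a difference of 0.57, and 0.17 and -0.24 when counted together with *H2-DMb2*. For *Ctsl* it was -0.13 at ZT2 and 0.73 at ZT14, a difference of -0.86, and its control ZT14 library, at 135 CPM, was the lowest of the 4. For *Cst3*, a cathepsin inhibitor, it was -0.18 and 0.23, a difference of -0.41. For *Irf8*, a myeloid transcription factor induced by interferon γ, it was 0.19 and -0.41, a difference of 0.60. For *Ctsd*, an aspartic protease, it was 0.09 and -0.06, a difference of 0.15.

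For 3 of 7 markers of all macrophages and 3 of 9 of large peritoneal macrophages, the ratio was below 0 at ZT2 and above 0 at ZT14, and the difference was -0.77 for *Adgre1*, -0.31 for *Itgam*, -0.14 for *Csf1r*, -0.56 for *Icam2*, -1.04 for *Cd5l* and -0.73 for *Alox15*. For 2 of 8 markers of small peritoneal macrophages, 1 of 8 of dendritic cells and 1 of 10 of B cells it was above 0 at ZT2 and below 0 at ZT14, and the difference was 0.52 for *Retnla*, 1.29 for *Folr2*, 1.62 for *Itgax* and 1.11 for *Ebf1*.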

How the results depend on the processing

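No member passed the criterion under any of the 9 alternatives of added amount, scaling, minimum expression, threshold (1.5-fold) or joint counting of *H2-DMb1* with *H2-DMb2*. The counts of members with an interval clear of 0 shifted by at most 1 in any comparison, and their median log2 ratios kept their signs. Of the values for single members and partner ratios under these alternatives, 197 could not move or did not, since thresholds leave a ratio as it is, the edgeR (TMM) scaling is that of the deposited CPM and joint counting touches only *H2-DMb1*, 164 moved by less than the width to either side of their counting interval, and 3 moved further. The log2 ratio of ZT2 to ZT14 in MCS became 0.34 for *Cd74* with *Rn45s* left out of the library totals, and 0.34 for *H2-DMb1* counted jointly with *H2-DMb2*, whose ratio to *H2-DMa* then changed by 0.41.

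The numbers of all genes past the criterion depended on the settings. In the order MCS against control at ZT14, the same at ZT2, then the 2 times compared within control and within MCS, they were 421, 279, 450 and 731. With 1 CPM added they were 174, 101, 229 and 409, with no minimum expression 1615, 1434, 1567 and 2053, with a log2 mean above 3 they were 81, 26, 139 and 197, and at 1.5-fold 1493, 981, 1469 and 2239. edgeR called 24 genes for MCS and 295 for time, 43 and 380 without a filter, and DESeq2 5 and 81. Depth limits *H2-Oa*, whose level had a counting error of 23.5% to 30.1%. No analysis paired by replicate number was possible because each condition had 1 library, and leaving out a replicate would leave a condition empty. The count test, through its additive term for time, does pair MCS with control at each time.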
